A study of Mus musculus with 20 samples.

Results

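Microglia, the resident immune cells of brain tissue, and the related macrophages of its borders were followed through 39 genes whose messenger RNA marks these cells, out of 57126 genes counted in whole mouse hippocampus. The 39 were chosen by name: 11 homeostatic microglia genes, 23 genes shared by microglia and other myeloid cells (pan-myeloid) and 5 genes of border macrophages. Of these, 38 passed the filter on low counts. The exception was Pf4, a platelet and border macrophage chemokine, which read 0 to 0.784 CPM (read pairs scaled to library size, with library factors from the trimmed mean of M values) and had no count in 1 library. The tissue came from adrenalectomized male C57BL/6 mice, as 20 libraries, each read as 1 mouse, in 4 groups of 5. Wild-type mice carried unmodified Nr3c1, the glucocorticoid receptor gene, and homozygous GRA knockin mice carried an exon 2 in which 7 internal ATG start codons were changed to ATC, so that the full-length GRA protein remains and the N-terminally shorter forms are lost. All mice lost their adrenal glands at about 2.5 months of age, so every group, controls included, lacked adrenal glucocorticoid. After 2 weeks they received an intraperitoneal injection of PBS (vehicle) or of dexamethasone, a synthetic glucocorticoid, at 1 mg per kg. The hippocampus was taken 6 h later.

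Resting microglia carry a set of surface receptors with which they sense their surroundings. CX3CR1 binds fractalkine from neurons, P2RY12 and P2RY13 bind nucleotides released by active or injured cells, and CSF1R binds the growth factors CSF1 and IL34, on which the survival of these cells depends. PU.1 (Spi1) is the transcription factor that sets up the myeloid lineage, and SALL1 keeps microglial identity. Border macrophages sit around vessels and in the meninges and are told apart by scavenger and hyaluronan receptors such as CD163 and LYVE1. Glucocorticoids bind their receptor, which then acts on DNA at paired hexamers or through other factors, and they are widely known for dampening immune cells. Whole tissue was sequenced, so a lower level may mean fewer cells of a type or less RNA per cell, and these cannot be told apart.

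Promoter letters are shown for 5 members that stand for the patterns reported next: Cx3cr1 and P2ry13, which fell, Cd163, which rose, and the neighbouring complement genes C1qb and C1qc, of which the former rose and the latter was not called. RefSeq windows (GRCm38.p6) were present for 29 of the 39 members, 35 windows of 300 bases in all, and each sequence printed here is the 250 bases before the annotated start, 5′ to 3′ on the gene's strand. Capitals mark the hexamer AGAACA or its reverse complement TGTTCT, which is 1 arm of the glucocorticoid receptor's palindrome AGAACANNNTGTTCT, and the heptamer GAGGAAG or its reverse complement CTTCCTC, a core bound by PU.1. The positions are chr9:120068297-120068546 (minus strand) for Cx3cr1, chr3:59210883-59211132 (minus) for P2ry13, chr6:124304401-124304650 (plus) for Cd163, chr4:136886201-136886450 (minus) for C1qb and chr4:136892915-136893164 (minus) for C1qc.
Cx3cr1: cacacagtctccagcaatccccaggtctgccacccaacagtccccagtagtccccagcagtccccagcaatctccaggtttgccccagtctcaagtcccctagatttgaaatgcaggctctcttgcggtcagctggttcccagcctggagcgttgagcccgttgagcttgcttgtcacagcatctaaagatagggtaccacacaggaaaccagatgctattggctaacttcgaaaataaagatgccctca
P2ry13: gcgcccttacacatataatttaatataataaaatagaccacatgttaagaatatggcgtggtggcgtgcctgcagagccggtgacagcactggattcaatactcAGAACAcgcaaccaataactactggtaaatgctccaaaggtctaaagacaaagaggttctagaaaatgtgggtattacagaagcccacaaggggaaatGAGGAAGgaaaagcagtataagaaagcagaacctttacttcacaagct
Cd163: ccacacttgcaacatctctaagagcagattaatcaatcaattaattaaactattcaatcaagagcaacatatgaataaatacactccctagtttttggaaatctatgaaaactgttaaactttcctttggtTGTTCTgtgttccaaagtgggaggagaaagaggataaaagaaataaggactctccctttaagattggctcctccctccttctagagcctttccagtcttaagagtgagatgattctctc
C1qb: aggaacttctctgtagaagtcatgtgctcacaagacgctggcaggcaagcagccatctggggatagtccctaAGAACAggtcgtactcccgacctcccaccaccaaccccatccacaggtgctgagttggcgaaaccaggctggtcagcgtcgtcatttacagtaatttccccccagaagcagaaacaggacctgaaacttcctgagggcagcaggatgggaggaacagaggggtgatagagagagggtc
C1qc: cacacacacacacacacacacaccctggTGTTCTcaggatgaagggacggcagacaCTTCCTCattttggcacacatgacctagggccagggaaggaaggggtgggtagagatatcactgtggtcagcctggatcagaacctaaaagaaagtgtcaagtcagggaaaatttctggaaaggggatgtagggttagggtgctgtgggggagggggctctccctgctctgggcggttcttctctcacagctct
The receptor hexamer was present in 11 of the 35 member windows (31.4%), against 19% of all 32851 windows in the table. It occurred in windows of members that fell (P2ry13), rose (Cd163, C1qb) and were not called (C1qc), and Cd163 and C1qc each held 1 more copy just after the start. The PU.1 heptamer was present in 16 of 35 windows (45.7%), against 13.6% of all windows. The full palindrome, which contains the hexamer, was found in 0 of 35 member windows and in 3 of 32851. These are matches of letters and show no binding.

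Libraries held 11493014 to 48267708 read pairs assigned to genes, and 18648 genes were tested. Nr3c1 was transcribed in all groups, at 118 to 197 CPM under PBS and 88.6 to 117 CPM under dexamethasone. Its counts cannot show the mutated codons, so they do not check the genotype. Some libraries stood out in genes typical of other tissues, and the source of these transcripts was not tested. The summed CPM of 10 liver genes was 197 and 114 in wild-type PBS replicates 1 and 2 against 3.92 to 48.2 elsewhere, and that of 10 choroid plexus genes was 1810 in wild-type PBS replicate 4 and 1440 in knockin dexamethasone replicate 2 against 40.9 to 609 elsewhere. Knockin PBS replicate 4 stood apart in neutrophil genes, with a summed level of 10.8 CPM over 12 genes against 2.91 to 5.93 CPM elsewhere. It was the highest library for 6 of the 12 genes, S100a9 (3.24 CPM), S100a8 (1.8), Ngp (0.681), Mmp8 (0.441), Ltf (0.4) and Cxcr2 (0.4). Ly6g and Cxcr2 had no count in at least 10 of the 20 libraries, and Ly6g read 0.04 CPM in this one. The same library was highest for 6 of 9 monocyte genes. Their sum without Fn1, which other cells of the tissue also make, was 10.1 CPM there against 0.858 to 4.25 CPM elsewhere.

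Dexamethasone lowered most of the tested members and raised a few, among them the border macrophage genes Cd163 and Lyve1. For the mean response of both genotypes, 30 of the 38 tested members passed edgeR's quasi-likelihood test at a Benjamini-Hochberg adjusted p below 0.05. Of all genes tested, 18.2% passed. The members that passed were 23 lower (8.41% of all genes were called lower) and 7 higher (9.79% of all genes). The median log2 fold change was -0.26 over the 38 members and -0.0004 over all tested genes. In wild-type mice 16 members were called lower and 6 higher. Of all genes 9.21% were called there, 3.94% lower and 5.27% higher. In knockin mice 22 were called lower and 4 higher, and of all genes 10% were called, 4.71% lower and 5.28% higher. Of the 30 calls for the mean response, 28 held under all 29 alternatives, whereas 9 of the 22 wild-type calls and 4 of the 26 knockin calls were lost under at least 1 of 30. The wild-type count of higher members fell from 6 to 3 when the 2 liver-bearing libraries, wild-type PBS replicate 1 alone or wild-type dexamethasone replicate 2 alone was left out, so calls are given here for the mean response and single genotypes by their values.

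Of the homeostatic, pan-myeloid and border macrophage classes, the homeostatic members had the lowest median response. Their median log2 fold change for the mean response was -0.38, with 8 of 11 called lower and 2 higher. It was -0.26 for the pan-myeloid members, with 15 of 23 lower and 3 higher, and 0.80 for the 4 tested border macrophage members, with 2 higher and 0 lower. Over all genes tested the median was -0.0004, with 8.41% called lower and 9.79% called higher. Medians of the smaller groups within the pan-myeloid class ran from -0.84 (Cd180 and Ly86) to 0.15 (C1q subunits). For the 20 further homeostatic genes described below the median was -0.11. For the 7 tested genes of a second border macrophage list, also described below, it was 0.03. Homeostatic minus all other members gave a difference of medians of -0.13 for the mean response and -0.17 in each genotype. The corresponding difference of mean log2 levels varied between libraries of a group with an SD of 0.1, and the homeostatic members themselves ran from -0.67 to 0.24. Calls in both directions occurred among the homeostatic surface receptors (6 lower, 2 higher, of 9) and in the TREM2 and inhibitory receptor group (3 lower, 1 higher, of 5).

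**Figure D1:**
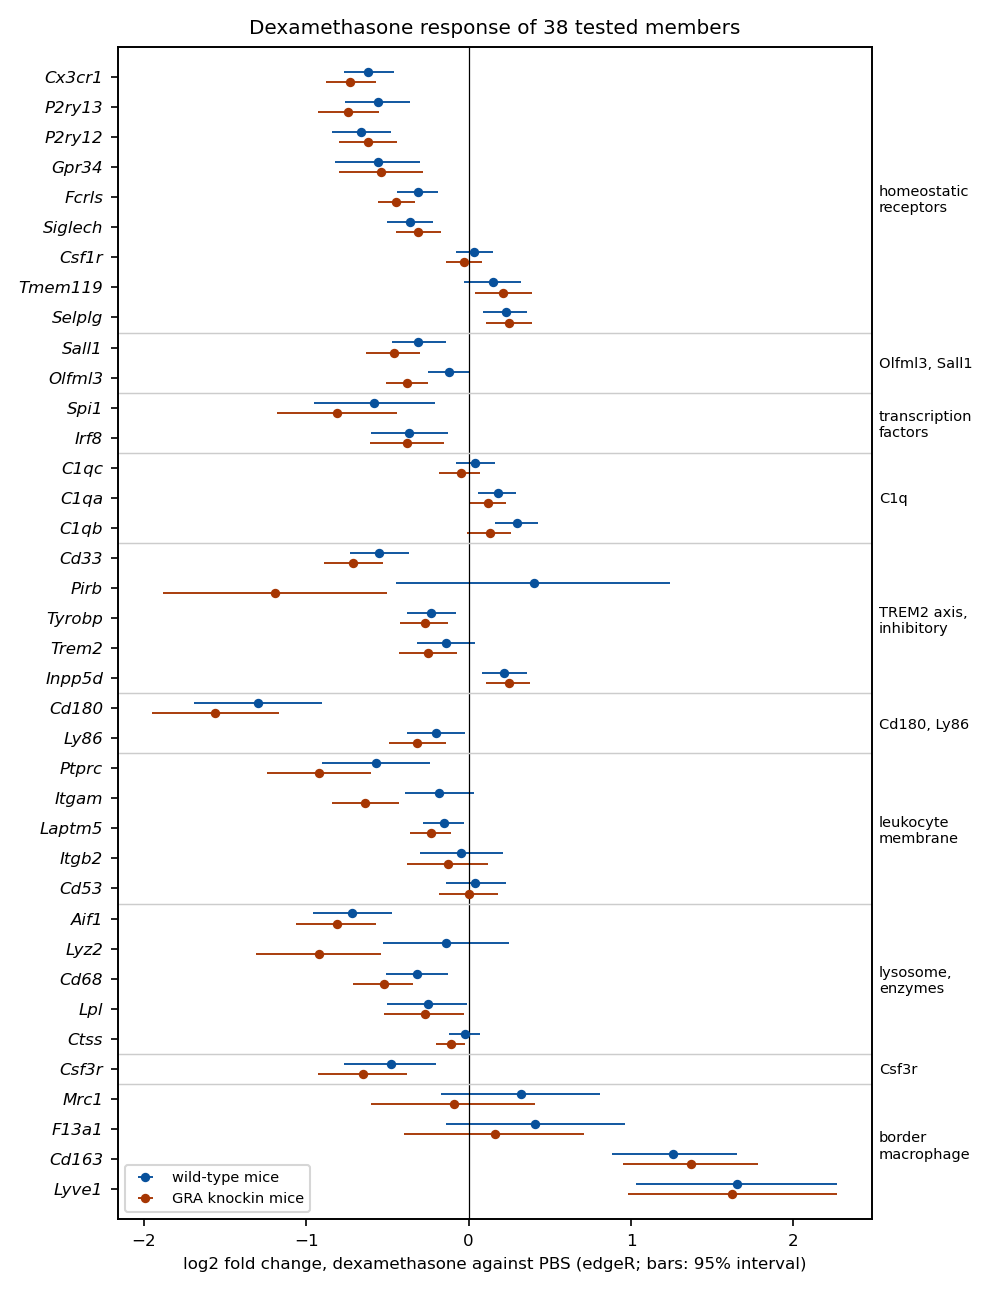
Log2 fold change of each tested member under dexamethasone against PBS (horizontal axis) with its 95% interval, in wild-type and GRA knockin mice, grouped by class. Cx3cr1, P2ry12, P2ry13 and Cd180 lie left of 0 in both genotypes, Csf1r and C1qc lie at 0, and Cd163 and Lyve1 lie right of 0.

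Cx3cr1, the fractalkine receptor (ENSMUSG00000052336.9, mm39 chromosome 9, 119877749 to 119898945, minus strand), was lower in every dexamethasone library than in any PBS library. Wild-type PBS libraries (replicates 1 to 5) read 64.4, 64, 72.1, 66.5 and 66.3 CPM, and wild-type dexamethasone libraries read 40.7, 39.7, 49.3, 41.4 and 45.4 CPM. Knockin PBS libraries read 69.6, 65.8, 73, 65.2 and 64.4 CPM, and knockin dexamethasone libraries read 42.9, 36.5, 42, 34.6 and 48.7 CPM. The mean log2 fold change was -0.67 (SE 0.05, 0.63 of the PBS level, edgeR adjusted p = 2.27e-09), with -0.62 in wild-type and -0.73 in knockin mice. Its ligand gene Cx3cl1 did not pass the test, at 0.03 (SE 0.02, adjusted p = 0.397).

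The nucleotide receptors P2ry12 and P2ry13, which are neighbours inside the gene Med12l on chromosome 3 (mm39, 59123693 to 59170292 and 59115313 to 59118303, minus strand), fell by log2 values close to that of Cx3cr1. For P2ry12 the wild-type PBS libraries read 48.3, 47.5, 60.7, 50.4 and 47.5 CPM and the dexamethasone libraries 31.4, 31.6, 32.5, 34.2 and 31.8 CPM. In knockin mice they read 48.6, 48.6, 52.9, 42 and 50.5 CPM under PBS and 33.5, 31.3, 31.2, 24.8 and 37 CPM under dexamethasone. No dexamethasone library reached a PBS library, and knockin dexamethasone replicate 4 was the lowest of all. The mean log2 fold change was -0.64 (SE 0.06, adjusted p = 8.95e-08). P2ry13 spanned 13.7 to 18.9 CPM in the 10 PBS libraries and 7.16 to 11.2 CPM in the 10 dexamethasone libraries, again without overlap, with a mean log2 fold change of -0.65 (SE 0.07, adjusted p = 1.93e-08).

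The other lowered receptors moved less. Gpr34, a lysophosphatidylserine receptor that lies within Cask on chromosome X, spanned 12.4 to 18 CPM under PBS and 7.33 to 12.4 CPM under dexamethasone, a mean log2 fold change of -0.55 (SE 0.09, adjusted p = 5.49e-05). Fcrls, an Fc receptor-like scavenger receptor used as a microglia marker, fell by 0.38 on the log2 scale (SE 0.04, adjusted p = 3.82e-08), from a median of 30.9 CPM to 23.4 CPM. Siglech, a sialic acid-binding lectin, fell by 0.34 (SE 0.05, adjusted p = 5.29e-06), from a median of 16.8 CPM to 13.5 CPM. The PBS and dexamethasone libraries of Fcrls and of Siglech did not overlap across both genotypes, and those of Gpr34 overlapped through knockin PBS replicate 4 at 12.4 CPM.

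Csf1r, the receptor for CSF1 and IL34 (mm39 chromosome 18, plus strand), did not follow these receptors. Wild-type libraries read 108, 106, 125, 113 and 111 CPM under PBS and 124, 123, 105, 117 and 109 CPM under dexamethasone. Knockin libraries read 112, 114, 122, 110 and 126 CPM under PBS and 105, 113, 122, 119 and 112 CPM under dexamethasone. The groups overlapped over their whole range, and the mean log2 fold change was 0.00 with a 95% interval of -0.08 to 0.08 (adjusted p = 0.993). An interval this narrow leaves out falls of the size seen for Cx3cr1. Within libraries the log2 ratio of Cx3cr1 to Csf1r counts was -0.75 ± 0.03 (SD, n = 5) in wild-type PBS and -1.41 ± 0.23 in wild-type dexamethasone libraries, and -0.79 ± 0.11 and -1.49 ± 0.24 in knockin libraries. Of Csf1r exon bases 17.9% overlap Hmgxb3 on the other strand, and pairs there were not assigned.

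A pair of homeostatic surface proteins went the other way. Selplg, the P-selectin ligand PSGL-1, rose by 0.24 on the log2 scale (SE 0.05, adjusted p = 0.000329), from a median of 27.6 CPM in PBS libraries (25.1 to 31.9) to 33.6 CPM in dexamethasone libraries (29.1 to 37.3). Tmem119, a microglia-specific membrane protein, was called higher at 0.18 (SE 0.06, adjusted p = 0.0323), with PBS libraries at 19 to 23.8 CPM and dexamethasone libraries at 20.3 to 28.1 CPM. The Tmem119 call was lost under 12 of 29 alternatives, among them leaving out wild-type PBS replicate 1 or 5, wild-type dexamethasone replicate 1 or 2, knockin PBS replicate 1 or 4, or knockin dexamethasone replicate 2 or 3 (adjusted p 0.0544 to 0.0726).

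Sall1, the transcription factor of microglial identity, fell from a median of 26.4 CPM (22.4 to 29.8) to 20.4 CPM (15.3 to 23), a mean log2 fold change of -0.38 (SE 0.05, adjusted p = 6.09e-06). Olfml3, a secreted protein of resting microglia, fell by 0.25 (SE 0.04, adjusted p = 7.79e-05). Its value was -0.12 in wild-type mice, where the libraries overlapped, and -0.38 in knockin mice, where all 5 dexamethasone libraries (18.5 to 20.1 CPM) lay below the PBS libraries (23.7 to 28.9 CPM). The difference between these responses was -0.27 (SE 0.09, unadjusted p = 0.00462, adjusted p = 1.0) and did not pass.

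**Figure D2:**
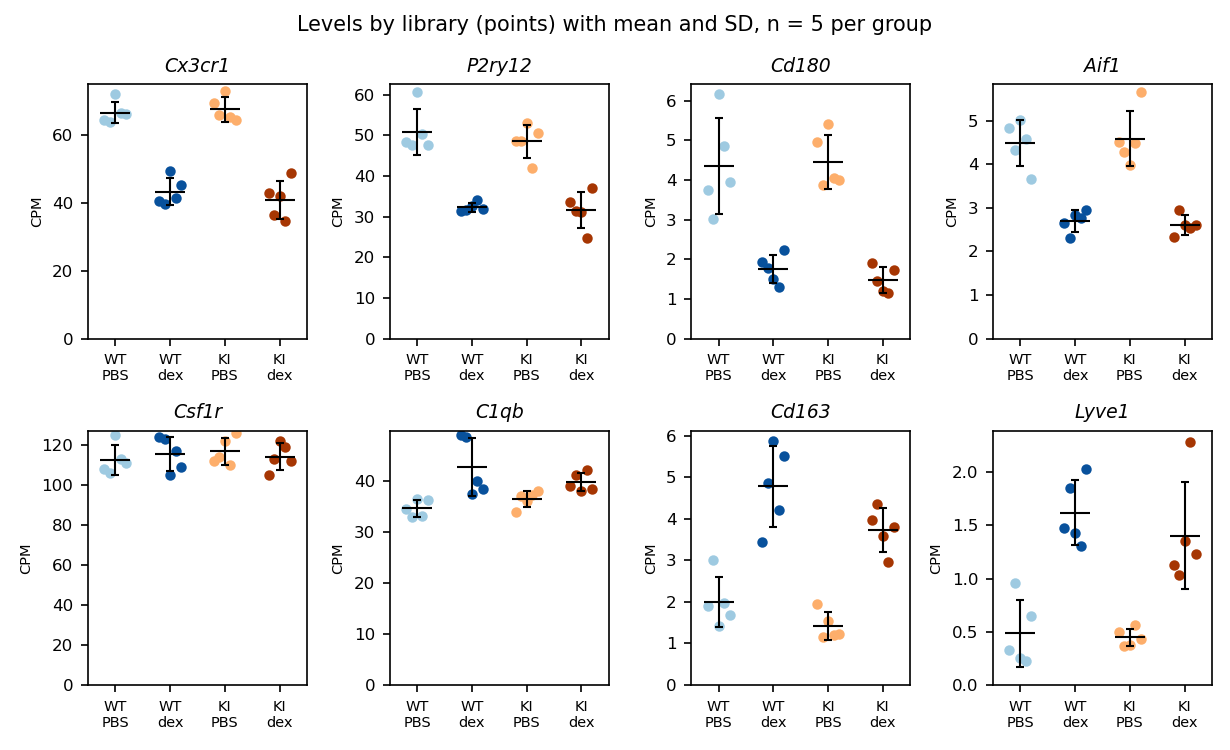
Level in CPM (vertical axes from 0) of 8 members in each library, as points, with the mean and SD of 5 libraries per group. Cx3cr1, P2ry12, Cd180 and Aif1 are lower in dexamethasone than in PBS libraries of both genotypes, Csf1r overlaps throughout, C1qb is separated in wild-type mice, and Cd163 and Lyve1 are higher.

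Both myeloid transcription factors fell. Spi1, which encodes PU.1, read 3.37, 3.19, 3.84, 3.73 and 3.71 CPM in wild-type PBS libraries and 2.93, 1.85, 2.6, 1.38 and 2.81 CPM after dexamethasone. Knockin libraries read 2.92, 3.65, 4.19, 4.32 and 3.31 CPM under PBS and 2.87, 1.73, 1.97, 1.51 and 2.17 CPM under dexamethasone. The groups were separate within each genotype, in knockin mice only narrowly (2.87 against 2.92 CPM), and the mean log2 fold change was -0.69 (SE 0.12, adjusted p = 0.000122). Irf8, a partner of PU.1 in macrophage and microglia development, fell by 0.37 (SE 0.08, adjusted p = 0.000815), with overlap in both genotypes.

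The 3 subunits of complement C1q, the starter of the classical complement cascade and among the most abundant microglial transcripts, split although their genes lie side by side on chromosome 4 (mm39, 136607440 to 136626114, minus strand). For C1qb the wild-type libraries read 34.6, 33, 36.5, 33.2 and 36.4 CPM under PBS and 49.1, 48.8, 37.5, 40 and 38.5 CPM under dexamethasone, without overlap. In knockin mice they read 34, 37.1, 36.2, 37.3 and 38.1 CPM under PBS and 39.1, 41.2, 38.1, 42.2 and 38.6 CPM under dexamethasone, where the highest PBS and lowest dexamethasone values met. Its mean log2 fold change was 0.21 (SE 0.05, adjusted p = 0.00107), and that of C1qa was 0.15 (SE 0.04, adjusted p = 0.0056). C1qc was not called, at -0.01 (95% interval -0.09 to 0.08, adjusted p = 0.952).

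Receptors that signal through activating or inhibitory motifs also divided. Trem2, a lipid-sensing receptor, and Tyrobp, its adaptor DAP12, fell by 0.20 (SE 0.06, adjusted p = 0.0202) and 0.25 (SE 0.05, adjusted p = 0.000365) on the log2 scale. Inpp5d, the phosphatase SHIP1 that restrains this pathway, rose by 0.23 (SE 0.05, adjusted p = 0.000389), from a median of 13.6 CPM to 16.5 CPM. Cd33, a sialic acid-binding inhibitory receptor, read 11.2, 12.2, 12.9, 12.6 and 11.7 CPM in wild-type PBS libraries and 7.56, 8.5, 8.81, 7.37 and 8.94 CPM under dexamethasone. In knockin mice it read 11.7, 11.6, 14.5, 11.9 and 10.7 CPM and then 7.63, 7.4, 7.32, 6.14 and 8.62 CPM. Every dexamethasone library lay below every PBS library, at a mean log2 fold change of -0.63 (SE 0.06, adjusted p = 1.04e-08).

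Cd180, an orphan Toll-like receptor homologue (mm39 chromosome 13, 102830066 to 102876137, plus strand), fell furthest of the 38. Wild-type libraries read 3.75, 3.01, 6.16, 4.87 and 3.94 CPM under PBS and 1.93, 1.79, 1.5, 1.31 and 2.23 CPM under dexamethasone. Knockin libraries read 4.95, 3.88, 5.41, 4.04 and 4.01 CPM under PBS and 1.91, 1.45, 1.19, 1.16 and 1.72 CPM under dexamethasone. No libraries overlapped between treatments, and the mean log2 fold change was -1.43 (SE 0.13, 0.37 of the PBS level, adjusted p = 4.59e-09). Ly86 (MD-1), the protein that CD180 pairs with at the cell surface, fell far less, by 0.26 (SE 0.06, adjusted p = 0.00235). Of Cd180 exon bases 4.04% overlap Mast4 on the other strand.

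Among the leukocyte membrane proteins, Ptprc (CD45, a tyrosine phosphatase of all white blood cells) fell by 0.74 on the log2 scale (SE 0.11, adjusted p = 8.4e-06). It read 4.06 to 8.49 CPM in PBS libraries and 2.6 to 3.59 CPM in dexamethasone libraries, without overlap. Itgam (CD11b, an integrin subunit) fell by 0.41 (SE 0.07, adjusted p = 6.4e-05) and Laptm5, a lysosomal membrane protein, by 0.19 (SE 0.04, adjusted p = 0.000905). The Itgam value was -0.18 in wild-type mice, where the libraries overlapped (edgeR adjusted p = 0.325), and -0.64 in knockin mice (adjusted p = 3.03e-05). The difference between these Itgam responses was -0.46 (SE 0.14, unadjusted p = 0.00278) and did not pass after adjustment. Itgb2 (CD18, the partner chain of CD11b) at -0.09 (95% interval -0.27 to 0.09) and Cd53, a tetraspanin, at 0.02 (-0.10 to 0.15) were not called. Of Itgam exon bases 70% overlap the gene model Gm49368 on the same strand and were not counted, so its level rests on the remainder. The highest Ptprc, Itgam and Itgb2 values (8.49, 12.3 and 8.53 CPM) all came from knockin PBS replicate 4, the library highest in neutrophil genes; without it the mean log2 fold changes were -0.63 for Ptprc, -0.38 for Itgam and -0.01 for Itgb2.

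Of the phagolysosomal and enzyme genes, Aif1 (IBA1, the actin-binding protein by which microglia are commonly stained) fell most. It read 4.84, 4.33, 5.02, 4.57 and 3.65 CPM in wild-type PBS and 2.66, 2.3, 2.83, 2.76 and 2.96 CPM after dexamethasone. Knockin libraries read 4.52, 4.29, 3.98, 4.49 and 5.66 CPM and then 2.33, 2.95, 2.6, 2.53 and 2.61 CPM. The treatments did not overlap, and the mean log2 fold change was -0.77 (SE 0.08, 0.59 of the PBS level, adjusted p = 5.89e-08). Cd68, a lysosomal glycoprotein, fell by 0.42 (SE 0.06, adjusted p = 1.26e-05), from a median of 8.61 CPM to 6.36 CPM. Ctss, the protease cathepsin S, was not called, at -0.07 (95% interval -0.13 to -0.00, adjusted p = 0.142).

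Lyz2, lysozyme of phagocytes, fell by 0.53 (SE 0.13, adjusted p = 0.00565), with -0.14 in wild-type and -0.92 in knockin mice. Knockin PBS replicate 4 again held the highest value, 17.6 CPM, and leaving it out gave a knockin value of -0.70 (adjusted p = 0.00123). Lyz2 has a close copy, Lyz1, and pairs that map to both were not counted. Lpl, lipoprotein lipase, which neurons also make, was called lower at -0.26 (SE 0.08, adjusted p = 0.0321). The Lpl call was lost under 12 of 29 alternatives, among them leaving out wild-type PBS replicate 1, 3 or 4, wild-type dexamethasone replicate 2 or 3, knockin PBS replicate 1 or 2, or knockin dexamethasone replicate 3 or 4 (adjusted p 0.0535 to 0.0633).

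Csf3r, the receptor for granulocyte colony-stimulating factor and best known from neutrophils, fell by 0.57 (SE 0.09, adjusted p = 4.4e-05). It read 5.77 to 8.12 CPM in the PBS libraries and 3.22 to 5.77 CPM in the dexamethasone libraries, the limits differing by less than the rounding. Knockin PBS replicate 4, with 7.89 CPM, was not its highest library; that was knockin PBS replicate 3 with 8.12 CPM. Summed neutrophil genes ran from 3.53 to 5.93 CPM in wild-type PBS libraries, from 3.38 to 4.98 CPM in wild-type dexamethasone libraries, from 3.65 to 10.8 CPM in knockin PBS libraries and from 2.91 to 4.97 CPM in knockin dexamethasone libraries. None of the 3 neutrophil genes tested was called by edgeR for the mean response, and 2 had an unadjusted p below 0.05. Of 3 monocyte genes tested, 1 was called lower for the mean response (median log2 fold change -0.90) and 2 in knockin mice (median -1.47), against 0 in wild-type mice (median -0.27). Of all genes tested, 8.41% were called lower for the mean response, 4.71% in knockin mice and 3.94% in wild-type mice. The gene called for the mean response was Itgal (the integrin chain CD11a, also made by lymphocytes), at -0.90 (SE 0.27, adjusted p = 0.0215) and at -0.69 (adjusted p = 0.0421) without knockin PBS replicate 4. Without that library 1 monocyte gene was called lower in knockin mice, Itgal again at -1.06 (adjusted p = 0.0434). Fn1, of the same list, went the other way, at 0.20 for the mean response (SE 0.07, adjusted p = 0.0747). Without knockin PBS replicate 4 it was called higher for the mean response, at 0.23 (adjusted p = 0.0306). The part of neutrophils and monocytes in the results for Csf3r and the other leukocyte members was not tested.

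Pirb, an inhibitory immunoglobulin-like receptor with near-identical paralogues and therefore an uncertain count, was the member whose genotypes looked most unlike. Wild-type libraries read 0.57, 0.257, 0.349, 0.305 and 0.163 CPM under PBS and 0.424, 0.447, 0.307, 0.461 and 0.519 CPM under dexamethasone. Knockin libraries read 0.605, 0.508, 0.955, 1.92 and 0.871 CPM under PBS and 0.461, 0.609, 0.312, 0.351 and 0.394 CPM under dexamethasone, with knockin PBS replicate 4 the highest. Wild-type mice gave a log2 fold change of 0.40 (SE 0.40, adjusted p = 0.662), and knockin mice gave -1.19 (SE 0.32, adjusted p = 0.0155). Without knockin PBS replicate 4 the knockin value was -0.72 and no longer passed (adjusted p = 0.138). The difference of the responses, -1.59 (SE 0.52, unadjusted p = 0.00503, adjusted p = 1.0), did not pass.

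**Figure D3:**
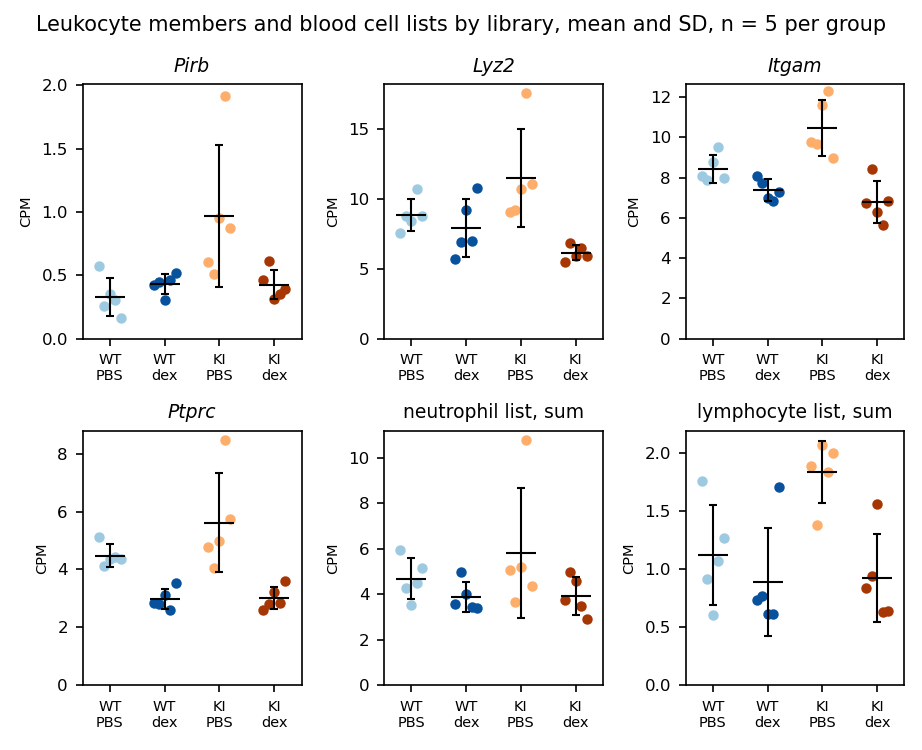
Levels in CPM, library by library, of Pirb, Lyz2, Itgam and Ptprc and of the summed neutrophil and lymphocyte lists, with mean and SD of 5 libraries per group. Knockin PBS replicate 4 is the highest library for the neutrophil sum (10.8 CPM), Lyz2 (17.6 CPM), Itgam (12.3 CPM), Ptprc (8.49 CPM) and Pirb (1.92 CPM).

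The tested border macrophage genes split into a pair that rose and a pair that was not called. Pf4, which was not tested, had a median of 0.424 CPM under PBS (0.185 to 0.784) over both genotypes. Under dexamethasone its median was lower, at 0.192 CPM (0 to 0.649), with overlap. Cd163, the hemoglobin scavenger receptor (mm39 chromosome 6, 124281615 to 124307486, plus strand), read 1.9, 3.01, 1.43, 1.98 and 1.69 CPM in wild-type PBS libraries and 3.43, 4.86, 5.87, 4.22 and 5.51 CPM after dexamethasone. Knockin libraries read 1.96, 1.15, 1.54, 1.2 and 1.22 CPM under PBS and 3.96, 4.36, 3.58, 2.95 and 3.79 CPM under dexamethasone. The treatments were separate within each genotype. The mean log2 fold change was 1.32 (SE 0.13, 2.49-fold, adjusted p = 2.54e-08), with 1.26 in wild-type and 1.37 in knockin mice.

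Lyve1, the hyaluronan receptor of perivascular macrophages and lymphatic endothelium (mm39 chromosome 7, 110449814 to 110462446, minus strand), rose most of all members from a low base. Wild-type libraries read 0.332, 0.954, 0.254, 0.228 and 0.652 CPM under PBS and 1.47, 1.85, 1.43, 1.31 and 2.03 CPM under dexamethasone. Knockin libraries read 0.498, 0.369, 0.372, 0.561 and 0.435 CPM and then 1.13, 1.03, 1.35, 2.28 and 1.23 CPM. Every dexamethasone library lay above every PBS library, at a mean log2 fold change of 1.64 (SE 0.21, 3.11-fold, adjusted p = 1.42e-06). Without the 2 choroid plexus-bearing libraries the mean values were 1.62 for Lyve1 and 1.29 for Cd163.

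Mrc1 (CD206, the mannose receptor) and F13a1 (a coagulation factor subunit of macrophages) were not called, at 0.11 (95% interval -0.24 to 0.47) and 0.28 (-0.11 to 0.67). Their highest values came from the wild-type dexamethasone replicates 3 and 5, with 10.6 and 9.97 CPM for Mrc1 and 6.28 and 4.26 CPM for F13a1. These were also the wild-type dexamethasone libraries highest in the summed level of 9 meningeal and perivascular fibroblast genes, 294 and 254 CPM against 174 to 210 CPM in the other 3. Over all groups that sum spanned 193 to 269 CPM in wild-type PBS, 162 to 231 CPM in knockin PBS and 184 to 217 CPM in knockin dexamethasone libraries. Without wild-type dexamethasone replicate 3 the wild-type value of F13a1 went from 0.41 to 0.08 and that of Mrc1 from 0.32 to 0.13. Wild-type dexamethasone replicates 3 and 5 were also the highest of the 20 libraries for Cd163 (5.87 and 5.51 CPM). The same held for Spp1 (19.3 and 13 CPM), described below. The Cd163 value for the mean response ran from 1.25 to 1.44 over the alternatives. How far border tissue in the sample took part in the values of these 4 genes was not tested.

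**Figure D4:**
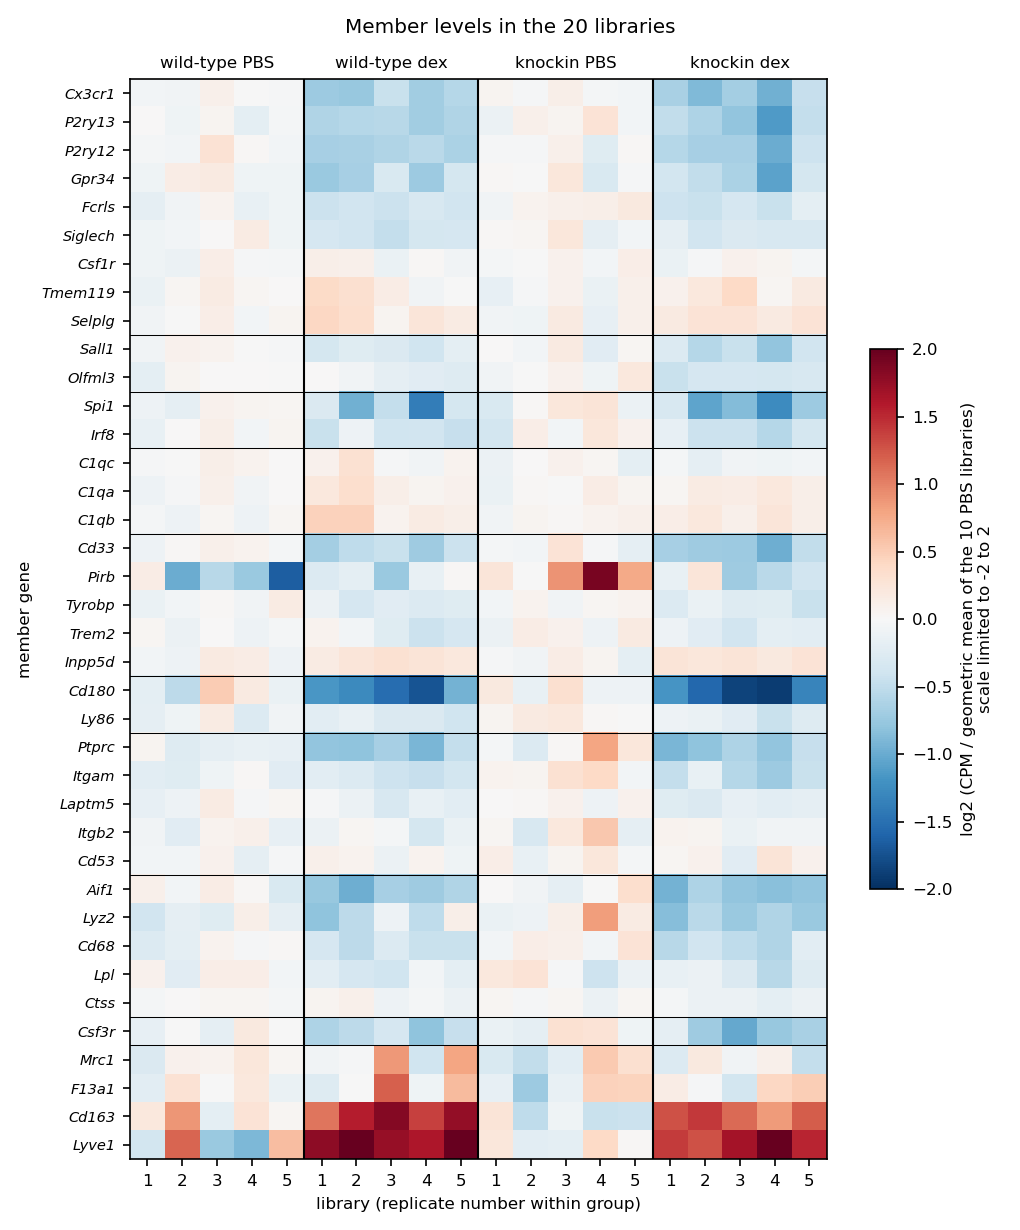
Level of each tested member in each of the 20 libraries, as log2 of CPM over the geometric mean of the 10 PBS libraries (colour, limited to -2 to 2), ordered by class and group. The dexamethasone columns of both genotypes are lower for most members, and higher for Cd163 and Lyve1.

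Of the 38 members, 10 had every dexamethasone library below every PBS library across both genotypes, and 1 (Lyve1) had every dexamethasone library above. Of all genes tested 3.9% were separate in this way, 1.72% below and 2.19% above. Within wild-type mice 14 members were wholly below and 3 wholly above, against 8.22% of all genes (3.68% below and 4.54% above). Within knockin mice 20 were wholly below and 4 wholly above, against 8.68% of all genes (4.03% and 4.65%).

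The genotype comparison asks whether losing the shorter receptor forms alters these genes. No gene of the 18648 was called by edgeR between knockin and wild-type mice under PBS (0% of all genes), under dexamethasone (0%), or for the difference of the responses (0%), nor by DESeq2 or limma-voom. When edgeR was fitted to the groups compared alone, 1 of 17792 genes was called lower in knockin mice under dexamethasone, and it was none of the 37 members tested there. At an unadjusted p below 0.05 there were 673, 828 and 527 genes, of which 6, 5 and 4 were members. The largest member difference under PBS was Pirb at 1.61 (SE 0.35, unadjusted p = 8.7e-05, adjusted p = 0.833), and 1.14 without knockin PBS replicate 4. Itgam read 0.33 higher in knockin mice under PBS (SE 0.10, unadjusted p = 0.00206) and was not called. Fcrls read 0.16 higher in knockin mice (SE 0.06, unadjusted p = 0.0084, adjusted p = 1.0) and Cd163 lower (log2 value -0.47, SE 0.21, unadjusted p = 0.0349, adjusted p = 1.0), and neither was called. The response was more negative in knockin mice for 31 of 38 members, and for 31 of 38 also without knockin PBS replicate 4. The median difference was -0.10 over the members and -0.0012 over all genes tested. The share of all genes with a more negative response was not counted. All members were read in the same 20 libraries, so the 38 signs are not independent. None of the 38 differences passed the test.

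Per length, the levels of the members covered a wide range. Averaged over the 20 libraries, Ctss stood at 48.2 CPM per kilobase of exon, C1qa at 41.6, C1qb at 35.4, C1qc at 30, Csf1r at 23.5, Tyrobp at 18.6 and P2ry12 at 16.7. Cx3cr1 stood at 12.2 CPM per kilobase. At the low end were Cd180 at 0.668, Cd163 at 0.664, Lyve1 at 0.342 and Pirb at 0.141 CPM per kilobase. The fold changes of the rare transcripts rest on few read pairs, 3 to 65 per library for Lyve1 and 14 to 189 for Cd163.

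Further microglial genes, from lists chosen by their known roles, had calls in both directions. Of 20 more homeostatic genes, 3 were called higher and 5 lower for the mean response, at a median log2 fold change of -0.11. Of all genes tested, 9.79% were called higher and 8.41% lower for this response. Mertk, a phagocytic receptor kinase that astrocytes also make, read 31.2 to 41.5 CPM in the PBS libraries and 70.1 to 85.2 CPM in the dexamethasone libraries, without overlap, and rose by 1.08 (SE 0.05, adjusted p = 1.28e-13). Among the lowered genes of that list were Adora3, at a log2 fold change of -0.60, and Gpr183, at -0.57. The Adora3 call was lost under 10 of 28 alternatives and the Gpr183 call under 2 of 28. Of 17 tested genes of activated or disease-associated microglia, 2 were higher and 6 lower, with a median of -0.13. Spp1, the secreted protein osteopontin, rose by 1.02 (SE 0.31, adjusted p = 0.0323), from a median of 3.23 CPM to 6.49 CPM, with overlapping treatments. Its call was lost under 12 of 29 alternatives, with no low-count filter, with the replicate block, without the 2 choroid plexus-bearing libraries, and when wild-type PBS replicate 3 or 5, wild-type dexamethasone replicate 3 or 5, knockin PBS replicate 1, 2, 3 or 4, or knockin dexamethasone replicate 4 was left out (highest adjusted p = 0.0713). Clec7a, the beta-glucan receptor dectin-1, fell by 0.91 (SE 0.27, adjusted p = 0.016), and its call was lost without the choroid plexus-bearing libraries (adjusted p = 0.0541). Cd44, an adhesion receptor, fell by 0.90 (SE 0.12, adjusted p = 1.29e-06) and Itgax, the integrin chain CD11c, by 0.79 (SE 0.19, adjusted p = 0.00314).

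Among 13 tested genes of purine and Toll-like sensing, 2 were called higher and 5 lower. The shares over all genes tested were 9.79% higher and 8.41% lower. Tlr7, a sensor of single-stranded RNA, rose by 1.23 (SE 0.14, adjusted p = 9.31e-07), from 3.24 to 4.49 CPM in PBS libraries to 6.62 to 14.2 CPM in dexamethasone libraries. Tlr2, a sensor of bacterial lipopeptides, fell by 0.88 (SE 0.16, adjusted p = 0.000145) and Tlr3, a sensor of double-stranded RNA, by 0.83 (SE 0.07, adjusted p = 6.41e-10). Nt5e, the enzyme CD73 that makes adenosine, rose by 0.61 (SE 0.15, adjusted p = 0.00713). Of the 7 tested genes on a second border macrophage list, 2 were higher and 1 lower: Ms4a6c, a tetraspan membrane protein, at 0.79 (SE 0.20, adjusted p = 0.00519), Stab1, a scavenger receptor, at 0.26 (SE 0.06, adjusted p = 0.00488) and Dab2, an endocytic adaptor, at -0.44 (SE 0.09, adjusted p = 0.000881).

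Of 6 tested ligands and growth factors of the member receptors, 0 were called higher and 2 lower (9.79% and 8.41% of all genes). The lowered genes were Tgfb1, a growth factor on which microglial identity depends, at -0.49 (SE 0.08, adjusted p = 2.48e-05), and Csf1 at -0.23 (SE 0.04, adjusted p = 0.000253). Il34, the other ligand of CSF1R, was not called at -0.02 (95% interval -0.14 to 0.09). C3, the complement component whose fragment binds CD11b with CD18, was not called at -0.92 (SE 0.54, adjusted p = 0.289), and its value was 0.19 without the 2 liver-bearing libraries, in which it read 19 and 8.44 CPM.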

How the data were processed

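Poly(A) RNA of whole hippocampus was sequenced as 75-base paired-end reads, 1 library per mouse, per the labels' protocols. Per gene, the authors deposited raw counts of read pairs made with featureCounts 2.0.6 against GENCODE M34 basic, per the file headers, without a strand option and without multi-mapping or multi-overlapping pairs. STAR 2.5.1, the mm39 build, Subread 1.5.1 and DESeq2 1.38.3 come from the submitters' processing notes; no source used here gives alignment settings. Because strand was ignored, overlapping antisense genes cannot be told apart. Gene symbols came from a GRCm38 names table (51884 of 57126 identifiers matched; the 5242 others held 0.264% to 0.337% of counts and stayed in the tests).

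The counts were tested in edgeR 4.0.16 (R 4.3.3): filterByExpr (minimum count 10, minimum total 15), trimmed mean of M values, and a robust quasi-likelihood fit to all 20 libraries with 1 term per group, which left 16 residual degrees of freedom. The mean response is the average of the responses of the 2 genotypes. Benjamini-Hochberg adjustment ran over all 18648 tested genes, and calls needed an adjusted p below 0.05. Intervals of fold changes are 95% intervals from the standard error with 16 degrees of freedom. The steps were tested on simulated data. Within-group library pairs (40) differed by a chi-square per gene of 2.51 to 12.6, so none was a duplicate. The labels call the libraries biological replicates, read here as 1 mouse each; otherwise p-values measure only the spread between these samples. Sums of marker lists are sums of CPM. Library totals ran from 11493014 to 48267708 read pairs, and counting error weighs most on rare transcripts of shallow libraries.

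The members, lists and tests were chosen with earlier results of these data known, so the counts over lists are descriptions. Every member may be named; from each other list at most 4 called genes by size of mean response, and any ligand. The values of 1 gene from these other lists are not reported here. Alternatives were DESeq2 1.42.0 (size factors, Wald test), limma-voom (limma 3.58.1) with quality weights, no filter, a filter of 50 counts in 5 libraries, a replicate block, only the groups compared, and leaving out libraries that stand apart or each library in turn. For genes outside the members these were added after seeing the data.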

Additional observations from a re-analysis of the deposited data

Results flagged for a closer look

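In 5 of the 156 combinations of a member and a group (3.21%), 1 library stood far from the other 4; chance alone gives about 1 in 20. P2ry12 read 60.7 CPM in wild-type PBS replicate 3, where the next library read 50.4 CPM. Olfml3 read 21.9 CPM in wild-type PBS replicate 1, below the next library at 24.9 CPM. Lyz2 read 17.6 CPM in knockin PBS replicate 4, the library highest in neutrophil genes, against 11.1 CPM in the next. Lyve1 read 2.28 CPM in knockin dexamethasone replicate 4 against 1.35 CPM in the next, and Irf8 read 4.86 CPM in wild-type dexamethasone replicate 2 against 3.99 CPM in the next.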

How the results depend on the processing

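For the mean response, 28 of 30 member calls held under all of the 29 alternatives that tested the gene (28 for Lyve1). The exceptions were Tmem119 and Lpl. Members called higher numbered 6 or 7 and members called lower 22 to 24. In wild-type mice the count called higher went from 6 to 3 without the 2 libraries with liver transcripts and ran from 3 to 6 when single libraries were left out; the count called lower ran from 12 to 17. In knockin mice the counts ran from 3 to 4 higher and from 20 to 23 lower. The difference of class medians stayed negative throughout, from -0.23 to -0.10.

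Values that changed sign were all of members or ligands that were not called. Csf1r, 0.00 for the mean response, read -0.00 with DESeq2 size factors, the DESeq2 Wald test, no filter and the 50-count filter, -0.01 with limma-voom and -0.03 without the liver libraries (-0.02 in wild-type mice), and from -0.01 to 0.02 when single libraries were left out. C1qc read 0.01 with limma-voom and without the choroid plexus libraries, -0.04 to 0.01 when single libraries were left out, and -0.02 to 0.07 in wild-type mice. Cd53 in knockin mice, 0.00, read -0.00 with DESeq2 size factors, the Wald test, limma-voom, the 50-count filter, the replicate block and without the choroid plexus libraries, -0.01 with only the groups compared or without the liver libraries, and -0.06 to 0.06 when single libraries were left out (-0.01 to 0.05 for the mean). With single libraries left out, Itgb2 in knockin mice ran from -0.22 to 0.02 and Mrc1 from -0.20 to 0.09, both highest without knockin PBS replicate 4; without replicates 4 and 5 Mrc1 read 0.24. C3 read 0.19 without the liver libraries and Il34 ran from -0.05 to 0.00 when single libraries were left out. The cause was not tested.

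The main fit did not pair libraries by replicate number. Same-numbered libraries of different groups correlated at -0.108 to 0.249 in their deviations, and 7 of 20 correlated best with their own number. These values do not exclude a pairing. With the number as a replicate block, the Lpl call (adjusted p = 0.0504), the Spp1 call (0.0665), the wild-type Tyrobp call (0.0613) and the wild-type Irf8 call (0.0562) were lost. Depth limits the rarest members, Lyve1, Pirb and Pf4, the last of which was not tested.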
